A study of Mus musculus with 18 samples.

Results

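The genes described are 10 genes of the circadian clock and its output: Per1, Per2, Per3, Cry1, Cry2, Arntl (also called Bmal1), Nr1d1, Nr1d2, Dbp, and Tef. All probes whose platform gene symbol is one of these were taken, each kept apart, which gave 16 of the 25697 probes measured, for 10 of 16593 gene symbols. The arrays came from thyroids of 21 female BALB/c mice (a nude, hence T cell deficient, stock per the study's methods) aged 6 months, in 6 groups. In 5 groups the mice were injected in the tail vein with 211At, an alpha-emitting halogen that accumulates in the thyroid, for absorbed doses to the thyroid of 0.05, 0.5, 1.4, 11.2, and 32.4 Gy at 24 h, and the 0 Gy group was handled with an empty syringe. Thyroids of a group were pooled, which made 6 RNA pools, and every pool was measured on 3 MouseRef-8 arrays of Illumina (18 in all). The 3 arrays of a group are therefore repeats of 1 pool: every p-value below measures the spread between arrays only, and the spread between mice was not measured. The clock time of injection and of killing, and the lighting schedule, are not given in the sources used here, so that dose and time of day cannot be told apart.

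In mammals the clock is a feedback loop within each cell. The transcription factors BMAL1 and CLOCK bind E-box sequences and switch on the Per and Cry genes. Their proteins accumulate, return to the nucleus, and shut off that same activity, in a cycle of about a day. A second arm joins it: BMAL1 and CLOCK also drive Nr1d1 and Nr1d2, whose proteins REV-ERB alpha and beta repress Arntl through elements that the ROR receptors activate. Dbp and Tef encode output factors of the PAR bZIP family that bind D-boxes in target genes. Most tissues, the thyroid included, run this loop, and Per1 also responds acutely to glucocorticoids and to cAMP signalling.

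A promoter window of 250 bases before and 50 bases after the transcription start was available from RefSeq (GRCm38.p6) for 9 of the 10 genes, 12 windows in all. Both strands were searched for the E-box CACGTG, the related CACGTT, the D-box TTATGTAA, the core TAGGTCA of the ROR and REV-ERB element, and the cAMP response element TGACGTCA; none of these overlapped another. CACGTG was found for Per1, Cry1, and Tef, in 4 windows, CACGTT for Cry1, Cry2, and Nr1d1, TTATGTAA at 2 positions for Per3, TAGGTCA for Arntl, and TGACGTCA in 0 of the 12 windows. Of 32817 mouse windows of this length, 7.15% held CACGTG, 4.69% CACGTT, 0.935% TTATGTAA, 2.61% TAGGTCA, and 1.79% TGACGTCA. A match describes the letters and shows no binding. Sequences are shown for Dbp and Per1, the genes that rose at most doses, for Per3, whose window holds the D-boxes, and for the Arntl match, which lies after the start, with matches in capitals.
Dbp, chr7:45704997-45705246, plus strand, the bases before its start: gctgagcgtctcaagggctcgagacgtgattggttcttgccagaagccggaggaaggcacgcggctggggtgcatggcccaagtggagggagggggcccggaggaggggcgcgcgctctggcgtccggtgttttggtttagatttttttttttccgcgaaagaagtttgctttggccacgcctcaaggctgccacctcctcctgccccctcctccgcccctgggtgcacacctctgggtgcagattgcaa
Per1, chr11:69098699-69098948, plus strand, the bases before the first of its starts: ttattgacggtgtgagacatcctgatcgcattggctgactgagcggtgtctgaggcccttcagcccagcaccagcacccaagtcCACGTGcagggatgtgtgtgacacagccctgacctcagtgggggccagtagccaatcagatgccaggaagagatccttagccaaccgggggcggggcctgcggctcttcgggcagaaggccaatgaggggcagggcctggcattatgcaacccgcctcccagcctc
Per3, chr4:151044666-151044915, minus strand, the bases before its start: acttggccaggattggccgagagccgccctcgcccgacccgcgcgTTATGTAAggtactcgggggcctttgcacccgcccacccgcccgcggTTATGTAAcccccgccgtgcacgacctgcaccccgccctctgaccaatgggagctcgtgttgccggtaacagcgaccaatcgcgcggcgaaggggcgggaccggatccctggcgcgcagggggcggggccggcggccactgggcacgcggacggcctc
Arntl, chr7:113207531-113207557, plus strand, around the match after the second of its starts: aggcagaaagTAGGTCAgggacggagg

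In the deposited normalized values, the 0.05 and 0.5 Gy arrays (6) have 1 common distribution with an upper quartile of 176.2, and the arrays of 0, 1.4, 11.2, and 32.4 Gy (12) have another with 241.9. Signals before normalization were therefore quantile-normalized here over all 18 arrays together (joint signals), and ratios to 0 Gy from the authors' values are given where they change the call of a clock gene; whether the 2 sets of arrays were also run apart is not given in the sources used here. Comparisons within a set (0.5 against 0.05 Gy, and 1.4, 11.2, and 32.4 against 0 Gy) do not cross this border. The labelled tissue was not borne out by its own markers: of 10 measured thyroid follicular genes, Tg (thyroglobulin), Slc5a5 (the sodium iodide symporter), Pax8, Nkx2-1, Foxe1, Duox2, Dio1, and Slc26a4 had no detected array in any group, and Tshr, detected on all 3 arrays at 0.5 and 1.4 Gy, and Iyd were the other 2. Genes of skeletal muscle (8 of 8), brown fat (5 of 5), and salivary gland (7 or 8 of 11) were detected on all 3 arrays of each group. Between 9737 and 10995 probes were detected per array (detection p-value under 0.01), with median signals before normalization of 86.3 to 115.3. In a pooled piece of tissue, fewer cells of a type and less RNA per cell cannot be told apart.

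Of the 16 probes, 11 were detected on all 3 arrays of each of the 6 groups: 2 of Per1, 2 of Per2, 2 of Nr1d1, and 1 each of Per3, Cry2, Nr1d2, Dbp, and Tef. The Arntl probe was detected on 8 of 18 arrays and on all 3 only at 1.4 Gy. The Cry1 probe was detected on 0 arrays, and Per2 ILMN_1258523, Nr1d2 ILMN_2602387, and Tef ILMN_2715400 were detected on 1, 1, and 3 arrays, so that Cry1 gave no signal above background and these 3 probes add nothing to the other probes of their genes.

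**Figure D1:**
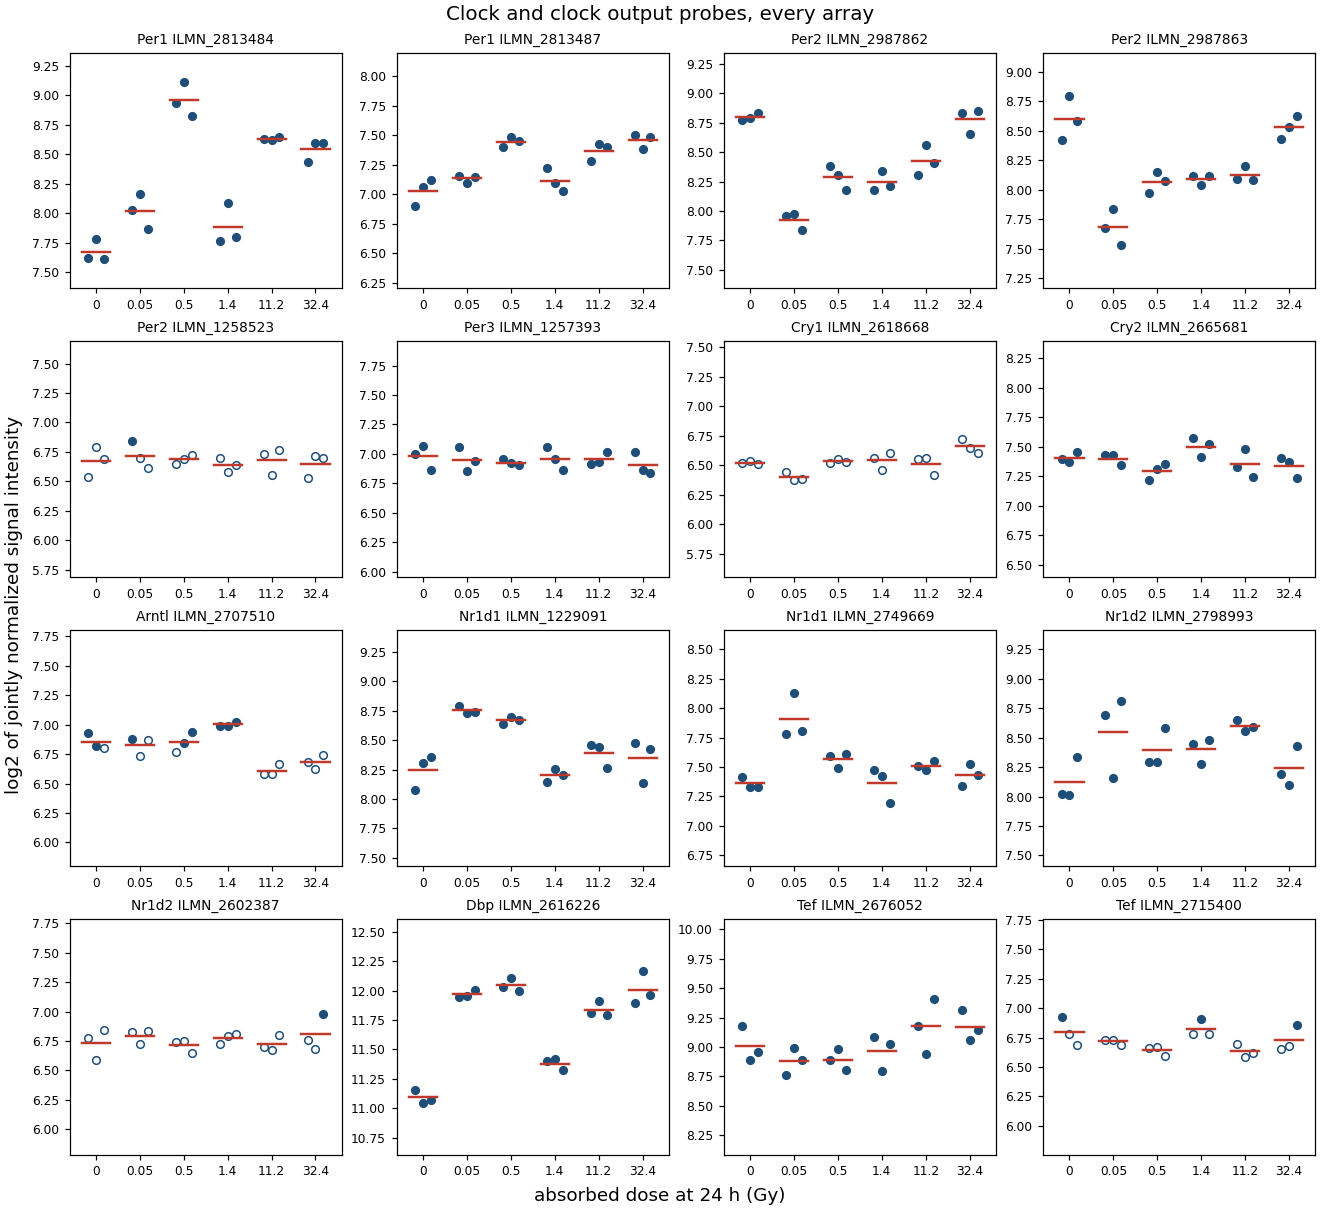
Log2 of the jointly normalized signal intensity (vertical axis, a range of at least 2 log2 units in each panel) of the 16 probes on each of the 18 arrays, by absorbed dose in Gy (horizontal axis). Filled points are detected arrays, open points arrays without detection, and red lines the mean of 3 arrays. Dbp and Per1 ILMN_2813484 are lowest at 0 Gy and next lowest at 1.4 Gy, Per2 ILMN_2987862 and ILMN_2987863 are lowest at 0.05 Gy, and Per3, Cry2, and Tef move little.

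Dbp and Per1 rose, Per2 fell, and the other 7 genes were called at no dose. A probe was called at a Benjamini-Hochberg adjusted p under 0.01 in limma and a change of at least 1.5-fold, with the adjustment over all 25697 probes. At 0.05 Gy 3 of the 16 probes were called against 0 Gy, Dbp higher and both detected Per2 probes lower, beside 4.81% of all probes. At 0.5 Gy 2 were called, Per1 and Dbp, both higher, beside 7.58% of all probes, so that the share of the clock probes (12.5%) was not far from that of the array. At 1.4 Gy 0 were called, beside 2.43% of all probes, although 6 had an unadjusted p under 0.05 in limma. The share of all probes under this unadjusted threshold was not computed, for this and the later counts of that kind. After another background correction (neqc) both detected Per2 probes were called lower at 1.4 Gy, beside 5.23% of all probes. At 11.2 Gy 2 were called (beside 2.8%) and at 32.4 Gy 2 (beside 2.09%), in both cases Per1 ILMN_2813484 and Dbp, higher. Among the 10929 probes with full detection in 1 group or more, 12 of them of the clock genes, 11.3%, 17.8%, 5.72%, 6.59%, and 4.92% were called in rising order of dose. The median log2 ratio of the 16 probes lay between 0.00 and 0.07 at the 5 doses, where that of all probes lay between −0.01 and 0.00. The 5 comparisons share the 0 Gy arrays.

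**Figure D2:**
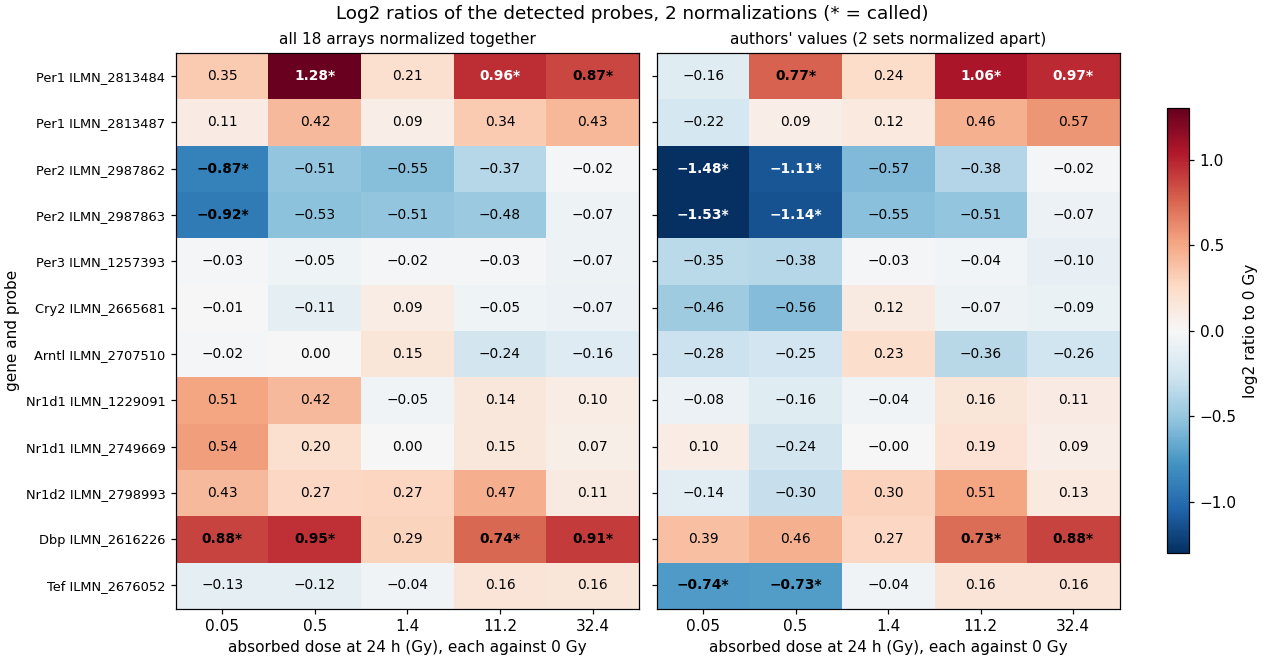
Log2 ratio to 0 Gy (colour and printed value) of the 12 probes with full detection (all 3 arrays) in 1 group or more (rows), at each dose in Gy (columns), from the 18 arrays normalized together (left) and from the authors' normalized values (right). Asterisks and bold type mark called ratios. In the columns of 0.05 and 0.5 Gy the ratios of the right panel are lower in every row, Dbp loses its calls there, and Tef gains calls in the lower direction; at 1.4, 11.2, and 32.4 Gy the same cells are called in both panels.

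Dbp, the output factor whose transcript swings widely over the day in many mouse tissues, rose at 4 of the 5 doses. Its joint signals were 3951, 3975, and 4098 at 0.05 Gy, 4182, 4405, and 4080 at 0.5 Gy, 2701, 2735, and 2566 at 1.4 Gy, 3584, 3855, and 3547 at 11.2 Gy, and 3803, 4598, and 3983 at 32.4 Gy, against 2281, 2119, and 2158 at 0 Gy. In rising order of dose, the arrays of 29.6%, 34.2%, 26.3%, 27.2%, and 24.1% of all probes did not overlap those of 0 Gy. These shares also stand beside the genes below whose arrays lay apart from 0 Gy. For Dbp, all 15 arrays of the irradiated pools lay above all 3 arrays of 0 Gy. Its arrays of 1.4 Gy lay below those of each other dose. From the lowest dose to the highest, the log2 ratios to 0 Gy were 0.88, 0.95, 0.29, 0.74, and 0.91 (SE 0.065 each), with adjusted p-values in limma of 1.28e-11, 1.17e-12, 0.00199, 6.36e-10, and 9.58e-12; the ratio at 1.4 Gy was under 1.5-fold. In order of level, 11.2, 0.05, 32.4, and 0.5 Gy stood next to each other, and no neighbours among them passed the test in limma (adjusted p = 0.287 to 0.835). The step between 11.2 and 1.4 Gy was 0.46 (adjusted p = 2.41e-06), under 1.5-fold. In the authors' values the ratios were 0.39 at 0.05 Gy and 0.46 at 0.5 Gy, neither at 1.5-fold, and 0.73 at 11.2 Gy and 0.88 at 32.4 Gy, both called. The Dbp calls of the 2 lowest doses therefore depend on normalizing the 2 sets together, and those at 11.2 and 32.4 Gy do not; with scaling to the 75th percentile the ratio at 11.2 Gy was 0.51 and was not called.

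Skeletal muscle genes moved in much the same order as Dbp. The summed joint signal of 8 muscle genes (Acta1, Ckm, Mylpf, Actn3, Tnnt3, Tnni2, Myh4, and Pvalb) was 16890 to 18120 at 0.05 Gy, 12560 to 13380 at 0.5 Gy, 5192 to 5471 at 1.4 Gy, 10840 to 11140 at 11.2 Gy, and 23640 to 24470 at 32.4 Gy, against 2096 to 2145 at 0 Gy. All 8 were called higher at 4 doses and 7 of them at 1.4 Gy. The 11 salivary gland genes summed to between 64140 and 67500 at 1.4 Gy and to between 117300 and 161200 at the other doses, against 91990 to 95830 at 0 Gy, with 4 or 5 called higher and 3 or 4 called lower at each dose. The part of muscle and of salivary tissue in the Dbp result was not tested.

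**Figure D3:**
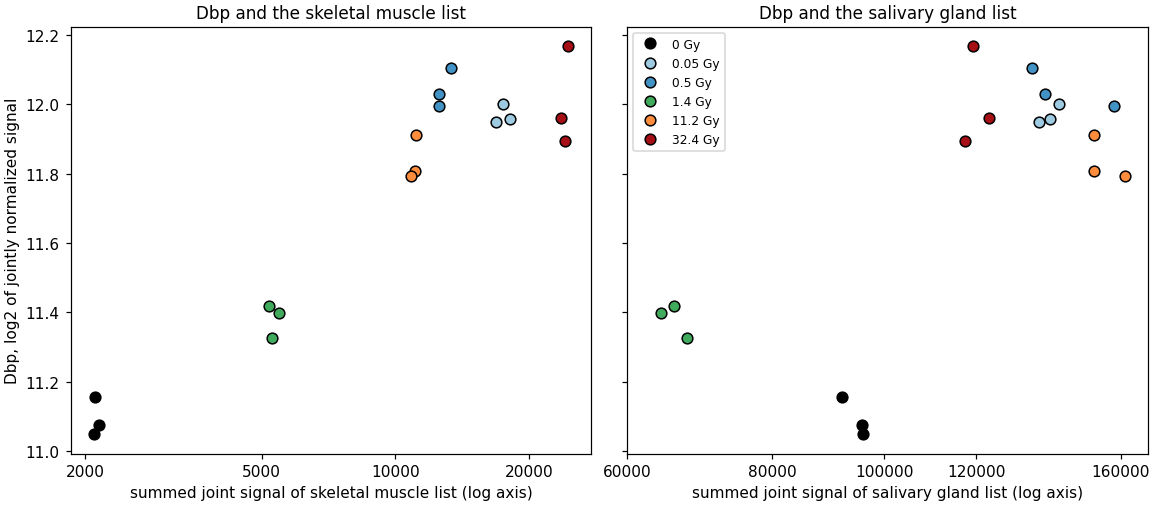
Dbp, as log2 of the jointly normalized signal (vertical axis), on each of the 18 arrays against the summed joint signal of 8 skeletal muscle genes (left) and of 11 salivary gland genes (right), both on log axes, coloured by dose. The 0 Gy arrays are lowest in Dbp and in muscle signal (2096 to 2145), the 1.4 Gy arrays are next in both, and the 1.4 Gy arrays are lowest in salivary signal (64140 to 67500).

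By rule the 5 probes whose signal was most like that of Dbp over the 18 arrays, among 10308 candidates, were named. They were Klk1b22 (Pearson r = 0.965), Egfbp2 (0.964), Atp2a1 (0.964), Acta1 (0.964), and Smgc (0.963): a pair of kallikreins and a secretory protein that are abundant in the mouse submandibular and sublingual glands, and the calcium pump and the actin of fast skeletal muscle. The log2 ratios to 0 Gy of Klk1b22, Atp2a1, and Acta1 were 2.49 to 7.09 at the doses other than 1.4 Gy, and 1.31 to 2.00 at 1.4 Gy. Egfbp2 and Smgc were not well above background on the 3 arrays of 0 Gy, so that their ratios have only a bound, set by the dimmest detected probe of each 0 Gy array or the probe's own signal where that was higher: at 1.4 Gy Egfbp2 was at least 5.25-fold higher and Smgc at least 1.28-fold higher, and for the remaining doses the lowest of these bounds were 73.5-fold for Egfbp2 and 5.87-fold for Smgc. The arrays come from 6 pools, so that the coefficient rests on 6 levels, and with the authors' values it was 0.778 to 0.921. Among the clock probes, Dbp went with Per1 ILMN_2813484 (r = 0.781 over the arrays) more than with Tef ILMN_2676052 (−0.01).

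Per1, which encodes a repressor of BMAL1 and CLOCK and is a period gene that acute signals induce, rose at 0.5, 11.2, and 32.4 Gy by its probe ILMN_2813484. This probe had joint signals of 261, 286, and 233 at 0.05 Gy, 490, 553, and 454 at 0.5 Gy, 217, 271, and 222 at 1.4 Gy, 397, 393, and 401 at 11.2 Gy, and 346, 387, and 387 at 32.4 Gy, against 197, 221, and 196 at 0 Gy. In these joint signals the arrays of 0.5 Gy lay above all others, those of 11.2 and 32.4 Gy came next, and only the 1.4 Gy arrays overlapped those of 0 Gy. The log2 ratios to 0 Gy were 1.28 at 0.5 Gy (adjusted p = 4.92e-13 in limma), 0.96 at 11.2 Gy (7.14e-10), and 0.87 at 32.4 Gy (6.71e-09), all called, and 0.35 at 0.05 Gy (0.00265) and 0.21 at 1.4 Gy (0.115), neither called (SE 0.084 each). The authors' values also called the first 3 (0.77, 1.06, and 0.97), in which 0.5 Gy was the lowest and not the highest of the 3, and gave −0.16 at 0.05 Gy. The other probe of the same transcript, ILMN_2813487, gave 0.11, 0.42, 0.09, 0.34, and 0.43 at the 5 doses in rising order (SE 0.066 each), all under 1.5-fold; those at 0.5, 11.2, and 32.4 Gy had adjusted p-values in limma of 7.27e-06, 0.000277, and 1.71e-05. After neqc the ratios of ILMN_2813487 at these 3 doses were 0.90, 0.76, and 0.92 and were called. In the authors' values its mean log2 signal was 7.49, 7.86, and 7.97 at these 3 doses, against 7.40 at 0 Gy and 7.17 at 0.05 Gy. The rise at 0.5 Gy was thus small in those values. The 2 probes of Per1 part over the size and not over the direction at these 3 doses.

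Per2, the sister repressor in the same loop, was called lower in the joint signals at 0.05 Gy only, and did not mirror Per1. Between Per1 ILMN_2813484 and Per2 ILMN_2987862 the correlation over the 18 arrays was −0.00387. Its probe ILMN_2987862 had joint signals of 248, 252, and 229 at 0.05 Gy, 333, 315, and 290.4 at 0.5 Gy, 289.7, 324, and 296 at 1.4 Gy, 317, 377, and 340.4 at 11.2 Gy, and 456, 404, and 460 at 32.4 Gy, against 438, 441, and 455 at 0 Gy. The 0.05 Gy arrays lay below all others, the arrays of 0.5, 1.4, and 11.2 Gy overlapped each other and lay below 0 Gy, and those of 32.4 Gy spanned the 0 Gy arrays. The log2 ratios were −0.87 at 0.05 Gy (adjusted p = 8.16e-11 in limma, called lower), −0.51, −0.55, and −0.37 at 0.5, 1.4, and 11.2 Gy (1.22e-06, 9.51e-07, and 0.00027; each under 1.5-fold), and −0.02 at 32.4 Gy (0.945, SE 0.071 each). The interval of the difference at 32.4 Gy was −0.163 to 0.128 (95%). Probe ILMN_2987863 gave −0.92, −0.53, −0.51, −0.48, and −0.07 in the same order, and was likewise called lower only at 0.05 Gy. Between the doses, 32.4 Gy stood above 0.05 Gy by 0.86 and 0.85 in the 2 probes (adjusted p = 6.6e-10 and 9.21e-09 in limma), the clock probes called in that comparison beside 1.55% of all probes. The authors' values called both probes lower at 0.05 Gy (−1.48 and −1.53) and also at 0.5 Gy (−1.11 and −1.14).

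Genes of blood, vessels, and brown fat were also low in the pools of the 2 lowest doses. The 3 measured erythrocyte genes summed to 9022 to 9974 at 0.05 Gy and 5467 to 5840 at 0.5 Gy, and to between 24490 and 33960 at the other doses, against 29960 to 34090 at 0 Gy. The 5 brown fat genes summed to 34520 to 34880 at 0.05 Gy and 18270 to 21010 at 0.5 Gy, against 54010 to 55560 at 0 Gy, and the 6 endothelial genes to 1550 to 1635 at 0.05 Gy and 1502 to 1553 at 0.5 Gy, against 2359 to 2636 at 0 Gy. Brown fat summed to 54610 to 61180 at 1.4 Gy, 43300 to 44960 at 11.2 Gy, and 49460 to 50880 at 32.4 Gy. The endothelial sums at these doses were 2447 to 2561, 1805 to 1884, and 1852 to 1990. Per2 was lowest at 0.05 Gy, and the erythrocyte and brown fat sums were lowest at 0.5 Gy. The endothelial sums of 0.05 and 0.5 Gy overlapped. The part of these tissues in the Per2 result was not tested.

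Per3, another period gene, and Cry2, a partner of the PER proteins in repression, did not pass the test at any dose. Per3 had joint signals of 115 to 134 over the 18 arrays and log2 ratios between −0.07 and −0.02 (SE 0.069), and the 95% intervals of its 5 differences ran from −0.211 at the lowest to 0.121 at the highest. Cry2 had signals of 149 to 190.1 and ratios between −0.11 and 0.09 (SE 0.067), with intervals from −0.249 to 0.23. On this scale a change of 1.5-fold lies outside the intervals of both genes. The scale has no background subtraction and compresses ratios of dim probes, so that the intervals do not exclude a 1.5-fold change of either transcript. The arrays overlapped those of 0 Gy at each dose, except Cry2 at 0.5 Gy, which lay below in all 3 arrays, in a comparison where 34.2% of all probes did not overlap. The authors' values gave −0.56 for Cry2 at 0.5 Gy, not called.

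Arntl, the BMAL1 gene, was not called at any dose. It had joint signals of 127, 127, and 130.2 at 1.4 Gy, 95.6, 95.6, and 101 at 11.2 Gy, and 103, 98.6, and 107 at 32.4 Gy, against 122, 113, and 111 at 0 Gy. It was detected on 3 arrays at 1.4 Gy, on 0 at 11.2 and 32.4 Gy, and on 2 at 0 Gy, and the log2 ratio at 11.2 Gy was −0.24 (SE 0.061, adjusted p = 0.00495 in limma). Because the 11.2 Gy arrays were not above background, that ratio has only a bound, which was under 1 and is not given. After neqc the ratio at 11.2 Gy was −0.71 and was called lower. The 5 probes most like Arntl over the 18 arrays were Ghr, the growth hormone receptor (Pearson r = 0.932), Cdk14 (0.884), Vnn3 (0.884), Ptger3 (0.883), and Abcc5 (0.872). Each was highest at 1.4 Gy and lowest at 11.2 Gy among the doses by its ratio to 0 Gy, as Arntl was, which follows from the choice by correlation. These coefficients also rest on 6 levels, and the Arntl probe was detected on only 8 of the 18 arrays.

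Nr1d1 (REV-ERB alpha) was higher at 0.05 Gy in both probes, short of 1.5-fold in the joint signals and past it after neqc. Probe ILMN_1229091 had joint signals of 443, 426, and 427 at 0.05 Gy, 399, 414, and 407 at 0.5 Gy, 283, 305, and 295 at 1.4 Gy, 352, 348, and 307 at 11.2 Gy, and 357, 281, and 343 at 32.4 Gy, against 269.8, 317, and 327 at 0 Gy. The arrays of 0.05 and 0.5 Gy lay above all 12 others. The log2 ratios were 0.51 at 0.05 Gy (adjusted p = 9.55e-06) and 0.42 at 0.5 Gy (9.17e-05 in limma, SE 0.079 each), and the other probe, ILMN_2749669, gave 0.54 (3.93e-06) and 0.20. After neqc the ratios at 0.05 Gy were 0.65 and 0.90, and both probes were called higher; ILMN_2749669 was also called without replicate 1 (0.60) or replicate 3 (0.59) of 0.05 Gy. Nr1d2 (REV-ERB beta), by probe ILMN_2798993, gave 0.43 at 0.05 Gy and 0.47 at 11.2 Gy (SE 0.118, adjusted p = 0.00773 and 0.00417 in limma), and without replicate 2 of 0.05 Gy it was called there, with 0.62. For all 3 probes the authors' values at 0.05 Gy were near 0 (−0.08, 0.10, and −0.14). The Nr1d1 arrays of 0.05 and 0.5 Gy are those of the set normalized apart, and set and dose cannot be told apart for them.

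Tef, the PAR bZIP relative of Dbp, did not follow it. Probe ILMN_2676052 had joint signals of 435 to 509 at 0.05 Gy, 446 to 507 at 0.5 Gy, 445 to 543 at 1.4 Gy, 492 to 679.7 at 11.2 Gy, and 535 to 635 at 32.4 Gy, against 475 to 579 at 0 Gy, and the groups overlapped at each dose. The log2 ratios were −0.13, −0.12, −0.04, 0.16, and 0.16 at the 5 doses in rising order (SE 0.097 each, lowest adjusted p = 0.33 in limma). In the authors' values it was called lower at 0.05 and 0.5 Gy, by −0.74 and −0.73; in those values the median of all probes was −0.193 and −0.189 at these doses, and 15.7% and 15.3% of all probes were called lower.

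Among the 5 doses, 8 of the 16 probes differed by limma's F test at an adjusted p under 0.01, beside 25.3% of all probes: both probes of Per1, 2 of Per2, both of Nr1d1, and those of Arntl and Dbp. Full detection in 1 group or more held for 12 of the 16 probes, but for only 10929 of all 25697. The F test share among such detected probes was not computed, so that 25.3% is not a like comparison. Arntl did not pass with 75th percentile scaling (adjusted p = 0.0371 in limma), nor Nr1d1 ILMN_1229091 with the authors' values (0.0141). The adjusted p was lowest for Per1 ILMN_2813484 (2.73e-11), followed by Per2 ILMN_2987862 (1.55e-09) and Dbp (3.87e-09). From dose to next dose, Per1 ILMN_2813484 was the clock probe that was called most often. At 0.5 against 0.05 Gy, where both groups belong to 1 set, it stood higher by 0.94 (adjusted p = 3.65e-09) and was the 1 probe called, beside 1.05% of all probes. At 1.4 against 0.5 Gy it was lower, with −1.08 (1.58e-11), as was Dbp, with −0.66 (1.58e-09), the 2 called beside 9.67% of all probes. In the authors' values these 2 ratios were −0.53 and −0.19 and were not called. There 4 other probes, of Per2, Cry2, Nr1d2, and Tef, were called higher, as were 17.1% of all probes. The calls of this comparison, which crosses the 2 sets, thus share no probe between the joint signals and the authors' values. At 11.2 against 1.4 Gy Per1 was higher again, by 0.75 (3.91e-08), the 1 call beside 5.28% of all probes, and at 32.4 against 11.2 Gy 0 were called beside 0.732% (5 with an unadjusted p under 0.05 in limma). At 32.4 against 1.4 Gy Per1 (0.66) and Dbp (0.63) were both called higher, beside 3.06% of all probes, and no call was made there with 75th percentile scaling.

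Of 21 further genes of the core clock, 19 were measured and 13 had a probe with full detection (all 3 arrays) in 1 group or more. Nfil3, which encodes the repressor E4BP4 that competes with DBP for D-boxes, rose at the same 4 doses as Dbp. Its joint signals were 433, 427, and 419 at 0.05 Gy, 787, 784, and 697 at 0.5 Gy, 266, 273, and 249 at 1.4 Gy, 444, 421, and 436 at 11.2 Gy, and 544, 503, and 525 at 32.4 Gy, against 284, 264, and 249 at 0 Gy. The arrays of 1.4 Gy overlapped those of 0 Gy, and those of each other dose lay above them. The log2 ratios were 0.68, 1.51, −0.01, 0.71, and 0.98 in rising order of dose (SE 0.063, adjusted p = 1.06e-09, 1.81e-17, 0.945, 9.32e-10, and 9.61e-13 in limma); the authors' values gave 0.12 at 0.05 Gy and 0.93 at 0.5 Gy.

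Rora, an activator at the elements where REV-ERB represses, rose at 0.5 Gy (0.61, SE 0.090, adjusted p = 3.09e-06 in limma) and at 1.4 Gy (0.62, 7.45e-06), and in the authors' values was 0.10 at 0.5 Gy and 0.70 at 1.4 Gy. Bhlhe40, which encodes DEC1, a repressor at E-boxes, fell at 1.4 Gy (−0.89, SE 0.074, adjusted p = 2.89e-10) and at 11.2 Gy (−0.64, 1.52e-07), with joint signals of 938.7, 907, and 770 at 1.4 Gy and 987, 1040, and 1080 at 11.2 Gy, against 1568, 1732, and 1542 at 0 Gy; in the authors' values it was −0.57 at 11.2 Gy, under 1.5-fold, and was called lower at 0.05 and 0.5 Gy (−0.69 and −0.97) as well as at 1.4 Gy. Clock, the partner of BMAL1, had ratios between −0.15 and 0.18 (SE 0.079), none called, but −0.75 at 0.5 Gy in the authors' values, called lower. Cipc, an inhibitor of CLOCK, had −0.58 at 0.05 Gy and −0.51 at 0.5 Gy, and Csnk1d, a kinase that marks PER proteins for breakdown, −0.46 and −0.32, all under 1.5-fold. In the authors' values both genes were called lower at both doses (Cipc −1.17 and −1.10, Csnk1d −1.06 and −0.92), and so was Ciart (−0.70 and −0.71). Csnk1e, Ciart, Btrc, Timeless, Tipin, Nono, and Wdr5 had ratios in the joint signals between −0.27 and 0.48, and Npas2, Arntl2, Rorb, Bhlhe41, Hlf, and Fbxl21 had no group with detection on all 3 arrays. In all, 1, 2, 1, 1, and 1 of the 19 were called higher and 0, 0, 1, 1, and 0 lower in rising order of dose, and the median ratio of the list lay between −0.03 and 0.05. Of all probes, 2.62%, 3.69%, 1.23%, 1.84%, and 1.31% were called higher and 2.18%, 3.9%, 1.2%, 0.957%, and 0.786% lower. With the authors' values 0 and 1 of the 19 were called higher and 4 and 5 lower at 0.05 and 0.5 Gy, beside the 15.7% and 15.3% of all probes called lower there.

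**Figure D4:**
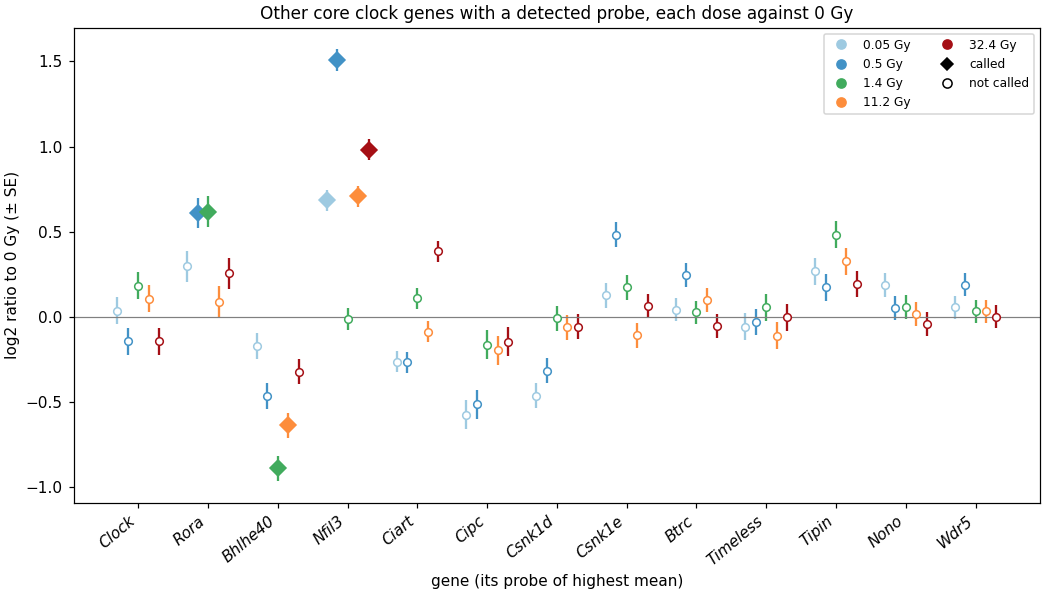
Log2 ratio to 0 Gy with its standard error (vertical axis) for the 13 further core clock genes with a detected probe (horizontal axis), coloured by dose. Filled diamonds mark called ratios and open circles the rest. Nfil3 is called higher at every dose but 1.4 Gy, with 1.51 at 0.5 Gy, Rora at 0.5 and 1.4 Gy, and Bhlhe40 is called lower at 1.4 and 11.2 Gy.

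Of 16 listed genes known to be driven by the clock in mouse tissues, 15 were measured, and 1, 0, 0, 1, and 1 were called higher and 1, 5, 1, 0, and 0 lower in rising order of dose, with median ratios of −0.08, −0.19, 0.07, −0.03, and 0.00. The shares of all probes were 2.62%, 3.69%, 1.23%, 1.84%, and 1.31% called higher and 2.18%, 3.9%, 1.2%, 0.957%, and 0.786% lower. With the authors' values 7 of the 15 were called lower at 0.05 Gy and 9 at 0.5 Gy, beside 15.7% and 15.3% of all probes. The 5 that fell at 0.5 Gy were Lpin1 (−1.08), a phosphatidate phosphatase of fat synthesis, Noct (−1.04), which encodes the rhythmic protein nocturnin, Nampt (−0.86), which makes NAD, Pnpla2 (−0.79), the lipase that starts fat breakdown, and Alas1 (−0.75), the first enzyme of haem synthesis (adjusted p = 3.92e-09 or lower in limma). Lpin1 had joint signals of 337, 349, and 351 at 0.5 Gy, against 691, 725, and 784 at 0 Gy. The groups lay apart, in a comparison where 34.2% of all probes did not overlap. Noct also fell at 0.05 Gy (−0.76), Herpud1, a protein of endoplasmic reticulum protein breakdown, at 1.4 Gy (−0.88), and Slc2a1, a glucose transporter, rose at 0.05 Gy (0.63) and 11.2 Gy (0.65). Usp2, a deubiquitinase, rose at 32.4 Gy (0.68, SE 0.076, adjusted p = 9.08e-08), with 815.5, 782, and 749 at 32.4 Gy, against 471, 489, and 502 at 0 Gy. Lpin1 and Pnpla2 are also abundant in fat, and the brown fat sum was lowest at 0.5 Gy. The 4 measured white fat genes (Adipoq, Lep, Plin1, and Retn) summed to 8259 to 9633 at 0.5 Gy, against 6509 to 6599 at 0 Gy. Of these 4, 1 was called lower and 0 higher at 0.5 Gy. The part of fat in these results was not tested.

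Glucocorticoids and cAMP signalling are known to induce Per1, and a list of genes that respond to each was set beside it. Of 14 measured glucocorticoid targets, 2, 2, 3, 2, and 0 were called higher and 0, 2, 0, 0, and 0 lower in rising order of dose (at 32.4 Gy 10 had an unadjusted p under 0.05 in limma), with median ratios of 0.07 to 0.20, where those of all probes were −0.01 to 0.00. The called counts stand beside 2.62%, 3.69%, 1.23%, 1.84%, and 1.31% of all probes called higher and 2.18%, 3.9%, 1.2%, 0.957%, and 0.786% lower. The count at an unadjusted p has no share of all probes beside it. All 14 targets were detected on all 3 arrays of 1 group or more, as were 10929 of the 25697 probes. Dusp1, a phosphatase of MAP kinases, rose at 1.4 Gy (1.40), 0.05 Gy (0.79), and 11.2 Gy (0.66), Sgk1, a kinase, at 1.4 Gy (0.65) and 11.2 Gy (0.81), and Sult1a1, a sulfotransferase, at 0.05, 0.5, and 1.4 Gy (0.65, 1.09, and 1.52). Nfkbia, the inhibitor of NF-kappa B, rose at 0.5 Gy (0.65), where Cebpb (−1.11) and Pdk4 (−1.60) fell. Of 12 immediate early and cAMP-responsive genes, 0, 0, 2, 2, and 1 were called higher and 1, 1, 0, 1, and 1 lower, beside the same shares of all probes. At 0.05 and 0.5 Gy 7 and 5 of them had an unadjusted p under 0.05 in limma, again without a share of all probes. Fos (1.03) and Egr1 (1.13) rose at 1.4 Gy, and Egr1 fell at 0.5, 11.2, and 32.4 Gy (−0.86, −1.11, and −1.21). Ppargc1a, a coactivator that is abundant in brown fat and muscle, fell at 0.05 Gy (−0.71) and rose at 11.2 and 32.4 Gy (0.80 and 0.88), and Nr4a2 rose at 11.2 Gy (0.72). In the authors' values 0 genes of these 2 lists, and 0 of the clock-driven list, were called higher at 0.05 and 0.5 Gy. In those values 4 and 5 of the glucocorticoid targets and 1 and 2 of the cAMP-responsive genes were called lower. The shares of all probes at these doses were 1.04% and 1.49% called higher and 15.7% and 15.3% called lower.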

How the data were processed

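Total RNA of 6 pools was hybridised in triplicate to Illumina MouseRef-8 arrays. The authors read the signals and quantile-normalized them in the BioArray Software Environment; the deposited values are linear-scale intensity, both before and after this step, and a detection p-value was deposited for each probe on each array. Whether background was subtracted is not given in the sources used here. The deposited series table equals the normalized table (largest difference 0) and was not used otherwise. Because the normalized values form 2 separately normalized sets (an upper quartile log2 difference of −0.46), tests here used log2 of the signals before normalization, quantile-normalized over the 18 arrays together, without background subtraction. This compresses ratios of dim probes. Probe genes come from the platform annotation (23978 probes with 1 symbol, 1719 with none, which are not named; 815 control probes were left out), and gene names were checked against RefSeq (GRCm38.p6).

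A mean per group was fitted in limma 3.58.1 under R 4.3.3 over all 18 arrays with moderated statistics, and p-values were adjusted by the Benjamini-Hochberg method over all 25697 probes. Thresholds of adjusted p under 0.01 and 1.5-fold follow the study's methods, whose test is not named there. SE is limma's moderated standard error, intervals are at 95%, and the number of arrays limits the precision. Alternatives were the authors' values, neqc, scaling to the 75th percentile, only probes detected in at least 1 group, only the arrays compared, the array number as a block, the adjusted p alone, and leaving out each array. Plots used matplotlib 3.10.9 and Python 3.11.15. The fit was tested on simulated data. Named are all probes of the 10 genes, each further core clock gene by its probe of highest mean, called genes of the other lists (up to 8 each), and the 5 probes most like Dbp and Arntl. The members and lists were chosen with earlier results of these data known.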

Additional observations from a re-analysis of the deposited data

How the results depend on the processing

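With each array left out in turn, the number of called clock probes was 3 to 4 at 0.05 Gy, 2 to 3 at 0.5 Gy, 0 to 1 at 1.4 Gy, 2 at 11.2 Gy, and 2 at 32.4 Gy against 0 Gy, and 8 to 9 by the F test among the doses. The 1 gained at 1.4 Gy was Per2 ILMN_2987863 without replicate 1 of 0 Gy (−0.60) or Per2 ILMN_2987862 without replicate 2 of 1.4 Gy (−0.60). The array number used as a replicate block left the 5 counts against 0 Gy at 3, 2, 0, 2, and 2 and gave 9 in the F test. Whether arrays of 1 number were run together is not given in the sources used here. Of 45 same-number pairs 18 had residual correlations over 0.1, and 17 of 18 arrays correlated best with their own number. The main fit has no term for the array number. With neqc the counts were 5, 5, 2, 5, and 3 in rising order of dose against 0 Gy, beside 9.91%, 14%, 5.23%, 6.18%, and 4.48% of all probes. They were 3 at 0.5 against 0.05 Gy, 4 at 1.4 against 0.5 Gy, and 2 at 11.2 against 1.4 Gy, beside 2.44%, 17.3%, and 10.8%. With the authors' values they were 4 at 0.5 Gy (beside 16.8% of all probes), 4 at 1.4 against 0.5 Gy (19.3%), and 2 at 11.2 against 1.4 Gy (6.32%). The 4 at 1.4 against 0.5 Gy were all higher, where the 2 of the joint signals were lower. In the F test 13 passed with these values, where 6 were gained and 1, of Nr1d1, was lost. The share of all probes passing the F test was computed for the main fit only. The F test counts of the alternatives therefore have no share of all probes beside them. With the 75th percentile the counts were 1 at 11.2 Gy (beside 3.54% of all probes), where Dbp had 0.51, and 1 at 1.4 against 0.5 Gy (11%). The adjusted p alone, without the fold, gave 7, 6, 3, 7, and 3 in rising order of dose against 0 Gy, beside 16%, 19.7%, 9.88%, 11.7%, and 8.18% of all probes. From dose to next dose it gave 5, 4, 4, and 2, beside 5.94%, 23.1%, 17%, and 3.9%. At 11.2 Gy Arntl was called lower with neqc (−0.71, adjusted p = 0.00237 in limma). Testing only probes detected in at least 1 group, or only the arrays compared, changed no call. No called ratio changed sign under these alternatives, while 74 uncalled ones did. Apart from the fold rule, which by construction adds probes, the cause of these changes was not tested. Probes near background, above all Arntl, limit what the arrays show.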
